A study of Mus musculus with 40 samples.

Results

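Brown adipose tissue (BAT) from 5 control mice fed a high-fat diet (HFD) for 7 days was compared with BAT from 5 control mice kept on chow, gene by gene. The 10 libraries were chosen by their labels (control genotype, no injection, Chow or HFD) from the 40 of the series. The other libraries are from C-3BO mice, in which Cre driven by the *Ucp1* promoter switches on a *Gpr3* transgene, and from mice injected with saline or with CL-316,243, an agonist of the β3-adrenergic receptor. The control mice were male littermates of the C-3BO mice on a C57BL/6NTac and B6.FVB background, and carried either the *Gpr3* TTG allele without Cre or *Ucp1*-Cre without that allele. Which of these an individual mouse carried is not given in the sources used here. All mice were kept at 29 °C, a thermoneutral temperature, after 2 to 3 weeks of acclimation, and the HFD supplied 60 kcal% fat. An age of 13 to 19 weeks is stated for the HFD experiment and none for the chow mice apart from it. The comparison asks how the BAT transcriptome differs after the short HFD in mice with neither transgene activation nor agonist.

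Brown adipocytes oxidise fatty acids and glucose and release the energy as heat through uncoupling protein 1 (UCP1) in the inner mitochondrial membrane. Norepinephrine from sympathetic nerves switches this on through β-adrenergic receptors and cAMP, and at thermoneutrality that drive is low. The same cells take up fatty acids from lipoproteins, make new fatty acids from glucose (de novo lipogenesis) and keep triglyceride in many small droplets.

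Each library was taken as 1 mouse, and the numbers 1 to 5 were taken only to name the mice of a group. The libraries held 7453294 to 14193478 counts over 20295 listed genes, and 13277 genes had enough counts to be tested. Levels are in CPM, counts relative to the library total after scaling by TMM factors from edgeR, and 3 counts, taken as the floor of detection, came to 0.206 to 0.399 CPM, which covers counting error only. Differences are log2 fold changes, HFD minus chow, from edgeR's quasi-likelihood test with Benjamini-Hochberg adjustment over all tested genes. A gene passed the test at an adjusted p under 0.05 and was called higher or lower when its log2 fold change was also above 1 in size. Where all 5 HFD mice lay on one side of all 5 chow mice, the exact permutation test (two-sided, over all splits of the 10 mice into 5 and 5) gave p = 0.00794, the smallest it can give. *Gpr3* itself had 0.0687 to 0.744 CPM in the 10 control mice on either diet, at or near the level of 3 counts. *Alb* of liver did not exceed 0.954 CPM and *Lcn8* of epididymis had 0 counts. The 12 markers of brown adipocytes summed to 13253 to 18116 CPM on chow and 15339 to 28998 CPM on HFD. In whole tissue, fewer cells of a type and less RNA per cell cannot be told apart.

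RNA of skeletal muscle was higher in all chow libraries than in all HFD libraries. The 50 muscle markers summed to 1938, 10179, 19050, 19147 and 15973 CPM in chow mice 1 to 5, and to 284, 312, 417, 326 and 720.3 CPM in HFD mice 1 to 5. Chow mouse 1 held the least of its group and still lay above every HFD mouse. At its highest the muscle list took 1.91% of the counts of a chow library and 0.0720% of those of an HFD library. *Acta1*, the actin of skeletal muscle fibres (chromosome 8, 126415658 to 126418675), had 189.6, 1380.3, 2804, 2629 and 1958 CPM on chow and 0.936, 2.67, 14.97, 1.11 and 57.7 CPM on HFD. *Ckm*, muscle creatine kinase, had 91.9, 493, 1354, 1162 and 808 CPM against 0.432, 0.8001, 5.08, 0.370 and 19.5 CPM. *Mylpf*, a myosin light chain of fast fibres, had 16.0, 116, 377, 344 and 188 CPM against 0.936, 1.24, 3.30, 0.961 and 4.89 CPM. The groups were apart in all 3 genes, and within the chow group mouse 1 was lowest and mouse 3 highest. All 50 markers were called lower on HFD, as 4.87% of all tested genes were, 49 of them with no overlap between the groups, beside 9.44% of all tested genes, and their median log2 fold change was -6.60. With the mean log2 level of these markers in each library (the muscle score) added to the fit as a covariate, the median was 0.11. The score is made of these same markers, so this result was largely set in advance. In these 10 mice the score and the diet go together, and the fit estimates the slope of a gene on the score from the spread within the 8 groups of the series. Genes described below that did not pass in that fit are named as such. In a further fit chow mouse 1 was the sole chow control mouse and was taken to vary like the mice of the other groups. With 1 chow mouse the standard errors grew, for *Acsl1* from 0.18 to 0.35 at log2 fold changes of 0.98 and 1.10. A pass lost in that fit is thus by itself no sign of a smaller change.

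**Figure D1:**
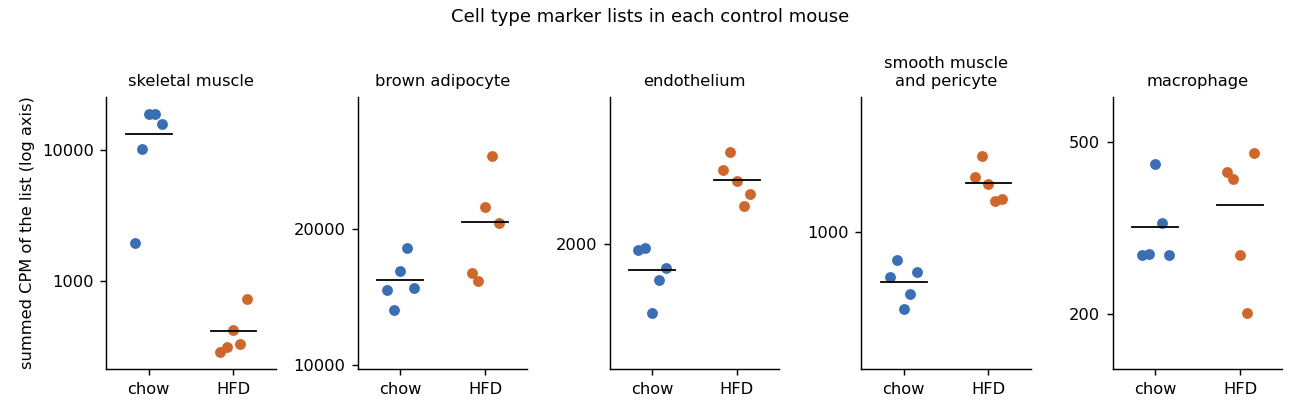
Summed level of 5 lists of cell type markers in each control mouse, in CPM on a log axis, with chow in the left column and HFD in the right column of each panel and a line at the mean of 5 mice. Skeletal muscle markers lie between 1938 and 19147 CPM on chow and between 284 and 720.3 CPM on HFD, endothelial and smooth muscle or pericyte markers are higher in all HFD mice than in all chow mice, and the brown adipocyte and macrophage lists overlap.

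On HFD 165 genes were called higher, 1.24% of those tested, and 647 were called lower, 4.87%. Without the fold threshold 2044 genes (15.4%) were higher and 2321 (17.5%) lower at an adjusted p under 0.05, and the median over all tested genes was 0.00. All HFD mice lay above all chow mice for 9.45% of tested genes and below them for 9.44%, and 586 of the 812 called genes were among these. Counts of list members below are to be read beside these shares of all tested genes. Of the 647 genes called lower, 234 also rose with the muscle score across all libraries, as 1.90% of tested genes did, and none of the 165 called higher did. With the muscle score as covariate 5.23% of tested genes passed as higher and 4.96% as lower, and 83 of the genes called higher and 190 of those called lower kept their direction and passed. With chow mouse 1 alone as the chow group, 100 genes were called higher and 215 lower. Of the 114 genes followed one by one below, 28 kept their sign but no longer passed with the muscle score as covariate, and 48 did so with chow mouse 1 alone. No gene of the lists of triglyceride synthesis, branched-chain amino acids, the stress response, immediate early genes, glucocorticoid response, cell cycle, interferon response and matrix passed in that last fit. Genes called higher made up 20.3% of all called genes, and 38.2% (344 higher, 556 lower) when library totals replaced the TMM factors, which moved the median over all tested genes to 0.15. *Scd1* alone took 3.30 to 13.4% of the counts in chow libraries and 0.684 to 3.09% in HFD libraries.

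**Figure D2:**
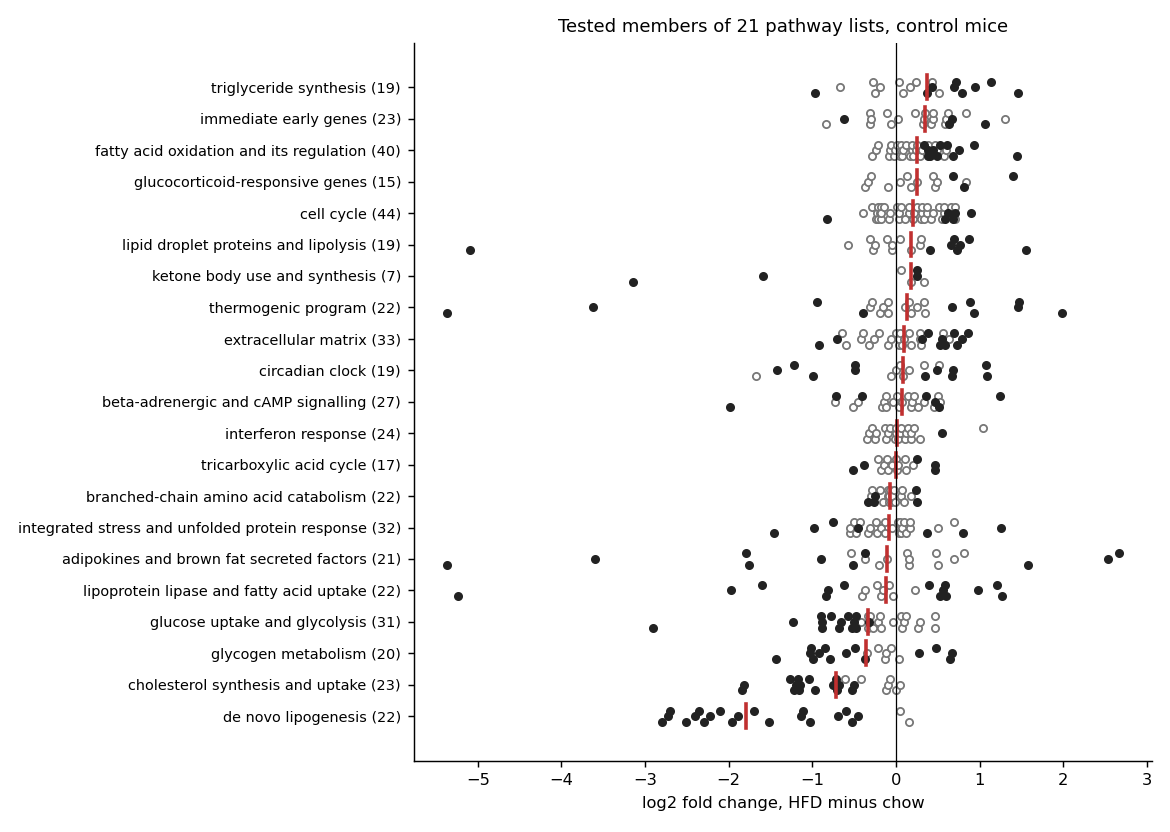
Log2 fold change, HFD minus chow, of each tested member of 21 pathway lists, with the number of tested members after each name, filled points for genes at an adjusted p under 0.05, open points for the others and a red line at each list's median. The medians run from -1.79 for de novo lipogenesis to 0.37 for triglyceride synthesis, beside 0.00 over all tested genes.

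*Ucp1* was several-fold higher on HFD, and the other genes of the thermogenic program moved in both directions or did not pass. *Ucp1* (chromosome 8, 85814247 to 85822355) had 1148, 1296, 1256, 1377 and 1116 CPM in chow mice 1 to 5 and 2573, 2701, 5255, 9442 and 4544 CPM in HFD mice 1 to 5. The chow mice were close together, the HFD mice spread widely with mouse 4 highest, and the groups did not overlap. The log2 fold change was 1.98 (standard error 0.27, adjusted p = 6.39e-07), or 3.96-fold, from 1239 ± 107 CPM (SD, n = 5) to 4903 ± 2789.7 CPM (SD, n = 5). Of the 22 tested members of the thermogenic list, 3 were called higher and 2 lower, beside 1.24% and 4.87% of all tested genes. As higher 6 passed and as lower 4, beside 15.4% and 17.5% of all tested genes, and the median of the list was 0.13. *Cpt1b*, which brings fatty acids into mitochondria of muscle and brown fat, had 76.1, 81.8, 71.6, 70.4 and 84.8 CPM on chow and 115, 121, 165, 179 and 152 CPM on HFD. All HFD mice were above all chow mice, and the log2 fold change was 0.93 (standard error 0.11, adjusted p = 5.22e-08). Only 150 exon bases of *Cpt1b* (chromosome 15, 89246836 to 89256293) were counted, so its level rests on a short stretch of the gene. *Prdm16*, a transcription factor that maintains brown adipocyte identity, rose by 0.89 (standard error 0.17, adjusted p = 9.24e-05), and *Cpn2*, the regulatory subunit of carboxypeptidase N, by 1.47 (standard error 0.23, adjusted p = 3.52e-06). *Dio2* and *Ppargc1a*, both central to the cold response, did not pass. *Dio2*, the deiodinase that makes active thyroid hormone in the tissue, had 10.2, 21.3, 27.3, 26.5 and 31.4 CPM on chow and 22.6, 26.7, 16.9, 54.2 and 27.4 CPM on HFD. Its log2 fold change was 0.35 (standard error 0.44, adjusted p = 0.585), and the direction was lost without HFD mouse 4. For *Ppargc1a*, the coactivator of mitochondrial genes, the log2 fold change was -0.19 (standard error 0.17, adjusted p = 0.418), and the groups overlapped.

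Other members of the thermogenic list fell. *Elovl3*, an elongase of very long chain fatty acids that is strongly raised by cold (chromosome 19, 46206389 to 46210184), had 31.5, 39.6, 36.9, 19.6 and 28.2 CPM on chow. On HFD it had 0.288, 0.533, 4.19, 6.36 and 0.358 CPM. HFD mice 3 and 4, those with the most *Ucp1*, also had the most *Elovl3* of their group, and all HFD mice were below all chow mice. Its log2 fold change came to -3.62 (standard error 0.47, adjusted p = 2.74e-07), and -2.62 (adjusted p = 0.00757) with the muscle score as covariate. *Bmp8b*, a secreted factor that sensitises BAT to norepinephrine, had 2.23, 2.43, 10.7, 1.95 and 2.40 CPM on chow and 0, 0, 0.0687, 0.296 and 0 CPM on HFD. It was low throughout, with 4 counts in HFD mouse 4, 1 in HFD mouse 3 and 0 in the other HFD mice, and its log2 fold change of -5.37 (standard error 0.90, adjusted p = 1.49e-05) rests on these counts. *Elovl3* overlaps *Pitx3* and *Bmp8b* overlaps *Oxct2b* on the genome, and whether reads were assigned by strand is not stated in the sources used here. With the muscle score as covariate, 4 thermogenic genes passed as higher and 2 as lower.

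**Figure D3:**
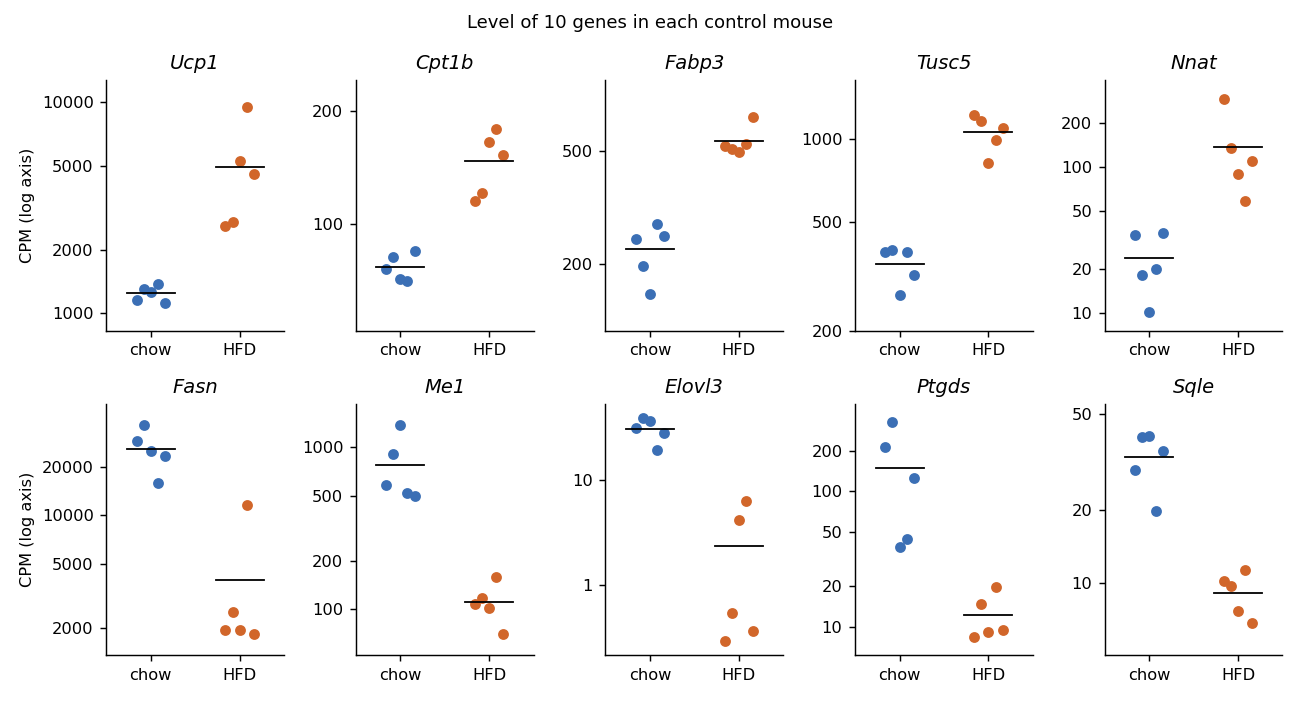
Level of 10 genes in each control mouse, in CPM on a log axis, with chow in the left column and HFD in the right column of each panel and a line at the mean of 5 mice (levels under 0.1 CPM would be drawn at 0.1). *Ucp1*, *Cpt1b*, *Fabp3*, *Tusc5* and *Nnat* are higher and *Fasn*, *Me1*, *Elovl3*, *Ptgds* and *Sqle* lower in all 5 HFD mice than in all 5 chow mice. The level of *Cpt1b* rests on 150 counted exon bases.

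Genes of the β-adrenergic and cAMP signal upstream of heat production passed about as often as all tested genes. Of 27 tested members, 4 passed as higher and 3 as lower, with a median of 0.07. *Adrb3*, the main β-adrenergic receptor of rodent adipocytes, had 242, 227, 209, 243 and 310 CPM on chow and 161, 158, 332, 458 and 281 CPM on HFD. HFD mice 1 and 2 were below and mice 3 and 4 above all chow mice, and the log2 fold change was 0.18 (standard error 0.21, adjusted p = 0.553). Adenylyl cyclases, which make cAMP, included the only list member called higher, *Adcy4*, which had 20.2, 15.1, 15.3, 18.8 and 27.3 CPM on chow and 49.4, 49.9, 46.8, 40.4 and 42.7 CPM on HFD, with no overlap and a log2 fold change of 1.25 (standard error 0.14, adjusted p = 1.47e-08). *Adcy6* rose by 0.47 (standard error 0.11, adjusted p = 0.00168). The only list member called lower was also a cyclase, *Adcy10*, the soluble form, which had 3.39, 8.51, 7.95, 4.10 and 3.06 CPM on chow and 0.720, 0.445, 0.206, 4.58 and 0.596 CPM on HFD. HFD mouse 4 lay within the chow range and the other HFD mice below it. Its log2 fold change of -1.98 (standard error 0.55, adjusted p = 0.00454) came to -3.45 without HFD mouse 4 (adjusted p = 1.89e-05) and to -0.80 (adjusted p = 0.606) with the muscle score as covariate. *Pde3b*, the phosphodiesterase that breaks down cAMP after insulin, fell by 0.40 (standard error 0.10, adjusted p = 0.00219). *Rgs2*, a brake on G protein signalling, fell by 0.72 (standard error 0.24, adjusted p = 0.0168), but did not pass without HFD mouse 4 (adjusted p = 0.0502), on plain library totals (adjusted p = 0.0639) or with the muscle score as covariate (adjusted p = 0.471).

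De novo lipogenesis had the lowest median of the pathway lists. Of its 22 members, all tested, 20 passed as lower (17.5% of all tested genes did), none as higher, and 16 were called lower (4.87%). Their median log2 fold change was -1.79, beside 0.00 over all tested genes. The 22 genes together had 135060, 208860, 91232, 67730 and 114160 CPM in chow mice 1 to 5. In HFD mice 1 to 5 they had 30935, 36473, 15566, 44977 and 17931 CPM. All HFD mice were below all chow mice. In the fit with the muscle score 12 members passed as lower, with a median of -1.50, and against chow mouse 1 alone 11 did, with a median of -1.84.

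Enzymes at each step from citrate to unsaturated fatty acid were lower. *Slc25a1*, which exports citrate from mitochondria, had 734, 683, 929, 686 and 575 CPM on chow and 157, 171, 158, 315 and 176 CPM on HFD, a log2 fold change of -1.88 (standard error 0.24, adjusted p = 2.46e-07). *Acly*, which splits citrate to acetyl-CoA, and *Acaca*, which makes malonyl-CoA from it, fell by 2.70 and 2.41 on the log2 scale (adjusted p = 1.91e-05 and 2.29e-06). *Acss2*, which makes acetyl-CoA from acetate, had 823, 1206, 873, 571 and 758 CPM on chow and 127, 140.3, 131, 203 and 144 CPM on HFD, a log2 fold change of -2.51 (standard error 0.27, adjusted p = 8.78e-09). For each of the 4 genes the groups did not overlap. *Fasn*, fatty acid synthase (chromosome 11, 120667272 to 120685861), had 29182, 36663, 25258, 16018 and 23373 CPM on chow and 1925, 2506, 1940, 11599 and 1823 CPM on HFD. HFD mouse 4 kept several times the level of the other HFD mice and still lay below every chow mouse, and the log2 fold change was -2.72 (standard error 0.50, adjusted p = 4.54e-05), 6.59-fold lower. *Elovl6*, which lengthens palmitate, and *Scd1*, the desaturase that makes oleate (chromosome 19, 44468940 to 44482199), had log2 fold changes of -2.36 (standard error 0.29, adjusted p = 1.38e-07) and -2.11 (standard error 0.38, adjusted p = 3.29e-05). *Scd1* had 81743, 144530, 33133, 32887 and 68758 CPM on chow and 22350, 27327, 6244, 19051 and 8775 CPM on HFD. Its levels varied widely among mice of either diet, and the groups did not overlap.

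*Me1*, malic enzyme, which makes NADPH, had 587, 906, 1363, 522 and 499 CPM on chow and 107, 117, 102, 158 and 70.8 CPM on HFD, the lowest log2 fold change of the list, at a value of -2.80 (standard error 0.32, adjusted p = 4.19e-08). In the pentose phosphate pathway *Tkt*, transketolase, changed by -1.70 (standard error 0.21, adjusted p = 1.52e-07) and *G6pdx*, which opens the pathway, by -1.03 (standard error 0.14, adjusted p = 4.87e-07). *G6pdx* overlaps *Ikbkg*. Among the 16 members called lower, HFD mouse 4 had the highest HFD level of 13. *Srebf1*, which encodes SREBP-1, a transcription factor of these enzymes, did not pass: its log2 fold change was 0.05 (standard error 0.21, adjusted p = 0.886), and its sign changed on leaving out chow mouse 1 or 2 or HFD mouse 4 or 5. Its level in chow mice 1 to 5 was 431, 337, 809.8, 467 and 552 CPM and in HFD mice 1 to 5 it was 421, 369.7, 443, 827 and 625 CPM, so that the groups overlapped. *Acly*, *Acaca* and *Srebf1* were picked from the list after their values were seen.

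**Figure D4:**
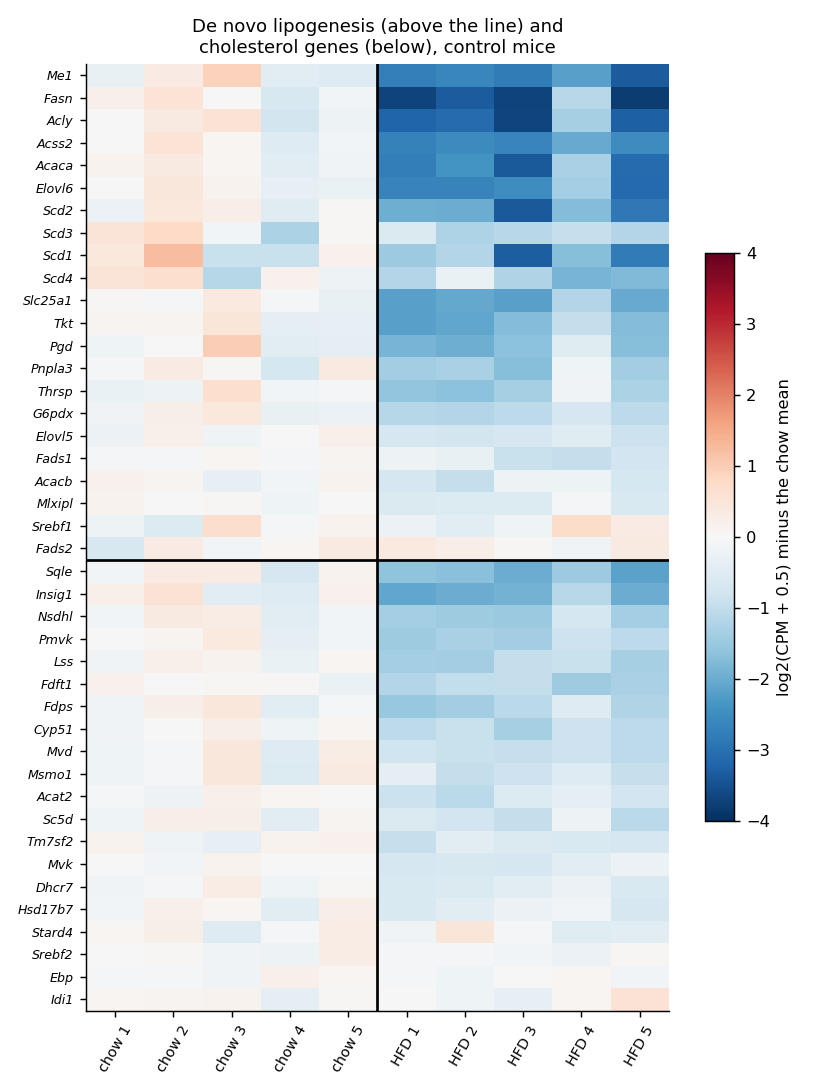
Level of each tested gene of de novo lipogenesis (22 genes, above the line) and of cholesterol synthesis and uptake (20 of 23 genes, below it) in each control mouse, as log2(CPM + 0.5) minus the mean of the 5 chow mice, with blue for lower and red for higher. The HFD columns are mostly blue, and among the 16 genes of the upper list called lower HFD mouse 4 has the highest HFD level for 13.

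Genes of the cholesterol pathway fell as well, by smaller amounts and not at every step. Of 23 tested members, 16 passed as lower (17.5% of all tested genes did) and none as higher. Called lower were 9, beside 4.87% of all tested genes, and the median was -0.71. With the muscle score as covariate 9 passed as lower, with a median of -0.44, and against chow mouse 1 alone 8 did. *Sqle*, squalene epoxidase, the first oxygen-requiring step (chromosome 15, 59146647 to 59162748), had 29.3, 40.01, 40.6, 19.8 and 35.1 CPM on chow and 10.1, 9.69, 7.62, 11.3 and 6.79 CPM on HFD. All HFD mice were below all chow mice, with a log2 fold change of -1.84 (standard error 0.23, adjusted p = 1.93e-07). *Insig1*, which holds the SREBP transcription factors in the endoplasmic reticulum and is itself one of their targets, had 565, 729, 363, 339 and 549 CPM on chow and 114, 124, 131, 228 and 123 CPM on HFD. There was no overlap, and the log2 fold change was -1.82 (standard error 0.23, adjusted p = 2.01e-07). *Fdft1*, squalene synthase, and *Lss*, lanosterol synthase, had log2 fold changes of -1.17 (standard error 0.15, adjusted p = 1.65e-07) and -1.20 (standard error 0.17, adjusted p = 8.96e-07). *Nsdhl*, which removes methyl groups from sterols, had -1.27 (standard error 0.20, adjusted p = 5.49e-06). *Fdft1* overlaps *Ctsb*.

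Many promoters of the cholesterol genes hold a short sequence in common. CCAAT, the box bound by NF-Y, a factor that is known to act beside SREBP at sterol genes, was found on either strand between 250 bases before and 50 after the RefSeq start in 19 of 23 tested cholesterol genes (82.6%), in 11 of 22 lipogenic genes (50%) and in 37.5% of all tested genes. A sterol response element of the form TCACNCCAC was in 0 of 23, 1 of 22 and 1.09% of these windows, and the E-box CACGTG in 3 of 23, 2 of 22 and 9.80%. None of the 3 motifs contains another, and they can share end letters only. No match says only that these letters are not in this window. Shown are the 150 bases before the start of 3 genes called lower, read from mm9 on the plus strand, with the letters of CCAAT, or of ATTGG where it lies on the other strand, in capitals. They are *Sqle* at chr15:59146497-59146646, *Lss* at chr10:75994222-75994371 and *Nsdhl* at chrX:70163710-70163859.
Sqle: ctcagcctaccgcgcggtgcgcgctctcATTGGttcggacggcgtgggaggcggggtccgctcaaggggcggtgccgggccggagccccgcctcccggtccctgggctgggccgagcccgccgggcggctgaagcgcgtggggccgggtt
Lss: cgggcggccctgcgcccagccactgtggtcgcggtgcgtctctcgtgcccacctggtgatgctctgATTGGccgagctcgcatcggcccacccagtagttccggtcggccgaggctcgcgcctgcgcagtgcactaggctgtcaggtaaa
Nsdhl: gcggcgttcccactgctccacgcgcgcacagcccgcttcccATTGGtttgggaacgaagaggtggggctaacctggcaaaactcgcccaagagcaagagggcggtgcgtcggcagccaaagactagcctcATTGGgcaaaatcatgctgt
*Sqle* and *Lss* have 1 copy of the box here and *Nsdhl* has 2. The match is a description of the sequence and no measurement of binding.

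Genes that bring fatty acids into the cell moved both ways. Of 22 tested genes of lipoprotein lipase and uptake, 8 passed as higher and 6 as lower, and 7.00 and 4.00 did with the muscle score as covariate. *Fabp3*, which carries fatty acids in the cytosol, had 245, 196, 157, 277 and 251.97 CPM on chow and 521, 509.8, 496, 531 and 659 CPM on HFD. All HFD mice were above all chow mice, and the log2 fold change was 1.27 (standard error 0.19, adjusted p = 1.95e-06). *Cd36*, the fatty acid translocase, had 1821, 1832, 2062, 2091 and 2005 CPM on chow and 2862, 2707, 3204, 3324 and 2571 CPM on HFD, again without overlap, and a smaller log2 fold change of 0.58 (standard error 0.10, adjusted p = 1.25e-05). *Lrp1*, a receptor for lipoprotein remnants, rose by 1.20 (standard error 0.16, adjusted p = 2.98e-07). *Lpl*, the lipase that frees fatty acids from circulating triglyceride, had 4289, 4004, 4697, 5735 and 4476 CPM on chow and 3736, 3511, 4769.9, 5253 and 3229 CPM on HFD, and its groups overlapped, with a log2 fold change of -0.18 (standard error 0.16, adjusted p = 0.423). The acyl-CoA synthetases, which activate fatty acids, split. *Acsl5* had 288, 364, 305, 256 and 333 CPM on chow and 58.2, 61.3, 65.3, 131 and 78.0 CPM on HFD, a log2 fold change of -1.97 (standard error 0.26, adjusted p = 4.60e-07). *Acsl1*, picked after its value was seen, had 1326, 1470.5, 1133, 1709 and 1544 CPM on chow and 2079, 1992, 3591, 3811 and 2645 CPM on HFD, and rose by 0.98 (standard error 0.18, adjusted p = 6.40e-05). *Apoc1*, an apolipoprotein that holds back lipoprotein uptake, fell by 1.60 (standard error 0.19, adjusted p = 5.22e-08).

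Part of the genes of triglyceride synthesis rose. Of 19 tested members 8 passed as higher and 1 as lower, with a median of 0.37. Against chow mouse 1 alone none passed either way, with a median of 0.39. *Pck1*, which makes the glycerol backbone from pyruvate, had 2798, 2595, 1403, 3272 and 2839 CPM on chow and 5238, 5009, 6393, 6324 and 5361 CPM on HFD. Chow mouse 3 was lowest, and no HFD mouse fell into the chow range, with a log2 fold change of 1.13 (standard error 0.21, adjusted p = 4.92e-05). *Gyk*, glycerol kinase, had 45.5, 56.1, 56.4, 50.9 and 53.8 CPM on chow and 59.2, 53.9, 198, 323 and 84.8 CPM on HFD. HFD mice 1 and 2 lay at the chow level and mice 3 and 4 far above it, so that the log2 fold change of 1.46 (standard error 0.33, adjusted p = 6.87e-04) came to 0.92 (adjusted p = 0.0153) without HFD mouse 4. *Agpat9*, which starts glycerolipid synthesis, and *Aqp7*, the glycerol channel, rose by 0.95 (standard error 0.20, adjusted p = 3.33e-04) and 0.72 (standard error 0.13, adjusted p = 3.53e-05). *Mogat1*, of the monoacylglycerol route, fell by 0.97 (standard error 0.22, adjusted p = 5.88e-04). Of these genes 3 passed as higher with the muscle score as covariate, and *Gyk* and *Aqp7* kept their direction at adjusted p = 0.0808 and 0.256.

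On the lipid droplet, 7 of 19 tested genes passed as higher and 1 as lower, and 7 still passed as higher with the muscle score as covariate. *G0s2*, the inhibitor of the main triglyceride lipase, had 65.3, 38.0, 168, 77.2 and 131 CPM on chow and 399, 139, 195, 376 and 299 CPM on HFD. HFD mouse 2 lay within the chow range, and the log2 fold change was 1.56 (standard error 0.32, adjusted p = 2.59e-04). *Mgll*, which frees the last fatty acid from glycerol, rose by 0.76 (standard error 0.16, adjusted p = 1.94e-04), the coat proteins *Plin5* and *Plin4* by 0.72 (standard error 0.15, adjusted p = 1.74e-04) and 0.65 (standard error 0.14, adjusted p = 3.23e-04), and *Fitm2*, which helps droplets form, by 0.69 (standard error 0.12, adjusted p = 1.47e-05). *Plin4* overlaps *Hdgfrp2*. *Fitm1*, the form of this gene typical of skeletal muscle, had 0.991, 8.51, 25.3, 29.4 and 16.2 CPM on chow and 0.0720, 0.533, 0.549, 0.591 and 0.596 CPM on HFD. Chow mouse 1 was lowest and chow mice 3 and 4 highest, as for the muscle markers. Its log2 fold change of -5.09 (standard error 0.85, adjusted p = 1.31e-05) turned to 1.41 (adjusted p = 0.329) with the muscle score as covariate.

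Of 40 tested genes of fatty acid oxidation and its regulation, 12 passed as higher (15.4% of all tested genes did) and none as lower. The 12 had log2 fold changes of 0.34 to 1.44, and the median of the list was 0.25. Of the 40, 1 was called higher, beside 1.24% of all tested genes, and 28 did not pass. Against chow mouse 1 alone 1 passed, as higher, with a median of 0.27. *Vnn1*, a pantetheinase and a known target of PPARα, had 3.97, 1.92, 0.895, 3.06 and 2.80 CPM on chow and 7.56, 9.87, 7.35, 5.54 and 4.65 CPM on HFD. There was no overlap between the groups, with a log2 fold change of 1.44 (standard error 0.30, adjusted p = 2.29e-04). *Ppara*, the nuclear receptor that drives this pathway, had 944, 855, 542, 844 and 1168 CPM on chow and 1531, 1515, 1603, 1180.3 and 1511 CPM on HFD, with HFD mouse 4 just above the highest chow mouse, with a log2 fold change of 0.75 (standard error 0.17, adjusted p = 5.52e-04). *Cpt1a*, the entry step outside muscle and brown fat, rose by 0.68 (standard error 0.14, adjusted p = 1.69e-04). *Etfa* and *Etfdh*, which pass electrons from acyl-CoA dehydrogenases to the respiratory chain, rose by 0.41 (standard error 0.09, adjusted p = 3.49e-04) and 0.61 (standard error 0.13, adjusted p = 3.35e-04). *Pdk4*, which turns off pyruvate oxidation when fat is burned, had 1526, 2405, 539, 2085 and 1336 CPM on chow and 1682, 2127, 3029, 2581 and 1512 CPM on HFD, and its groups overlapped, with a log2 fold change of 0.47 (standard error 0.29, adjusted p = 0.226). Of the 40, 4 passed as higher with the muscle score as covariate, *Etfa*, *Etfdh* and *Cpt1b* among them, while *Cpt1a*, *Vnn1* and *Ppara* kept their direction at adjusted p = 0.171, 0.0838 and 0.0601.

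Genes of glycolysis and pyruvate oxidation, which skeletal muscle also expresses strongly, were lower or did not pass. Of 31 tested genes 14 passed as lower and none as higher, with a median of -0.34. *Pdk1*, a kinase that inhibits pyruvate dehydrogenase, had 273, 303, 212, 210.2 and 238 CPM on chow and 101, 87.0, 107, 142 and 88.6 CPM on HFD, a log2 fold change of -1.24 (standard error 0.14, adjusted p = 2.16e-08) with no overlap. Subunits of the dehydrogenase complex fell too, *Dlat* with a log2 fold change of -0.69 (standard error 0.13, adjusted p = 6.12e-05) and *Pdha1*, which overlaps *Map3k15*, with -0.58 (standard error 0.11, adjusted p = 1.06e-04). *Pkm*, pyruvate kinase, had 1935, 2024, 2685, 1932 and 1804 CPM on chow and 925, 1024, 985, 1467 and 1189.6 CPM on HFD, a log2 fold change of -0.89 (standard error 0.14, adjusted p = 4.73e-06). *Gpi1* of upper glycolysis fell by 0.78 (standard error 0.16, adjusted p = 1.78e-04). *Aldoc*, an aldolase, had 17.9, 19.4, 8.39, 6.95 and 9.18 CPM on chow and 2.30, 2.13, 0.824, 1.03 and 2.03 CPM on HFD. Its chow mice fell into a higher pair, mice 1 and 2, and a lower trio, all above the HFD mice, and the log2 fold change was -2.91 (standard error 0.36, adjusted p = 1.25e-07). *Pdk1*, *Aldoc*, *Pkm* and *Dlat*, and no other gene of the list, passed as lower with the muscle score as covariate. *Pdha1* and *Gpi1* kept their direction at adjusted p = 0.0546 and 0.164.

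In glycogen metabolism 10 of 20 tested genes passed as lower and 4 as higher, with a median of -0.36, and 4 and 3 did with the muscle score as covariate. *Pygl*, the liver form of glycogen phosphorylase, had 932, 1114, 1381, 888 and 862 CPM on chow and 294, 314, 329, 672 and 307 CPM on HFD, a log2 fold change of -1.43 (standard error 0.24, adjusted p = 1.47e-05). *Pygb*, the brain form, moved the opposite way, with 195, 184, 143, 173 and 185 CPM on chow, 292, 296, 253, 229.9 and 304 CPM on HFD and a log2 fold change of 0.64 (standard error 0.10, adjusted p = 4.22e-06). Neither gene overlapped between the groups. *Ugp2*, which makes UDP-glucose and overlaps *Vps54*, fell by 0.92 (standard error 0.17, adjusted p = 5.52e-05). The phosphorylase kinase subunits *Phkb* and *Phka1* had -0.79 (standard error 0.10, adjusted p = 1.01e-07) and -1.02 (standard error 0.14, adjusted p = 6.03e-07). *Phka1*, the muscle form, did not pass with the muscle score as covariate (adjusted p = 0.223).

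The tricarboxylic acid cycle and amino acid breakdown passed no more often than all tested genes. Of 17 genes of the tricarboxylic acid cycle 3 passed as higher and 2 as lower, with a median of 0.00. *Sucla2* and *Idh2* rose by 0.46 (standard error 0.10, adjusted p = 2.68e-04) and 0.46 (standard error 0.11, adjusted p = 8.47e-04), and *Sdhb* and *Fh1* had -0.52 (standard error 0.09, adjusted p = 3.23e-05) and -0.38 (standard error 0.09, adjusted p = 9.22e-04). *Idh2* and *Fh1* did not pass with the muscle score as covariate (adjusted p = 0.0718 and 0.086). Of 22 genes that break down branched-chain amino acids, 2 passed as higher and 3 as lower, none were called, and the median was -0.07. Of 7 ketone body genes 2 passed each way. *Aacs*, which feeds acetoacetate into lipid synthesis, had 353, 342, 559, 275 and 363 CPM on chow and 94.7, 87.3, 95.7, 248 and 99.7 CPM on HFD, with no overlap. Its log2 fold change was -1.59 (standard error 0.27, adjusted p = 1.58e-05), and its adjusted p was 0.0583 with the muscle score as covariate.

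Circadian genes are given because a difference in the hour of collection would show in them, and that hour is not given for these mice in the sources used here. Of 19 tested, 6 passed as higher and 5 as lower, beside 15.4% and 17.5% of all tested genes. The part of the diet and of the hour of collection in these changes was not tested. *Rora*, a nuclear receptor that activates clock genes, fell by 0.99 (standard error 0.14, adjusted p = 1.08e-06). *Hlf*, a clock output factor, rose by 1.07 (standard error 0.24, adjusted p = 6.24e-04), *Nr1d1*, a clock repressor, by 0.49 (standard error 0.12, adjusted p = 0.00204), and *Per2*, a core clock gene picked after its value was seen, by 1.09 (standard error 0.39, adjusted p = 0.027). In the fit with the muscle score none passed as higher and 2 as lower, *Rora* among them. The adjusted p in that fit was 0.0827 for *Hlf*, 0.2 for *Nr1d1* and 0.143 for *Per2*, and *Per2* also lost its pass without any one of chow mice 2, 4 and 5 (adjusted p = 0.0713, 0.0829 and 0.0699) or HFD mouse 5 (adjusted p = 0.0590).

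Of 32 tested genes of the integrated stress and unfolded protein response, 3 passed as higher and 4 as lower. *Sesn2*, a sensor of leucine and a target of ATF4 and p53, had 7.93, 7.90, 5.15, 5.63 and 9.72 CPM on chow and 14.6, 13.6, 25.1, 17.3 and 15.5 CPM on HFD, with no overlap, with a log2 fold change of 1.26 (standard error 0.26, adjusted p = 1.89e-04). *Xbp1*, of the unfolded protein response, fell by 0.45 (standard error 0.11, adjusted p = 0.00153), and did not pass on plain library totals (adjusted p = 0.0508). Of 23 immediate early genes, which answer stimulation within minutes, 3 passed as higher and 1 as lower, and none passed with the muscle score as covariate. *Cyr61*, a secreted matrix protein, rose by 1.06 (standard error 0.28, adjusted p = 0.00346). Of 15 glucocorticoid-responsive genes 3 passed as higher, *Ddit4*, an inhibitor of mTORC1, with 1.40 (standard error 0.28, adjusted p = 1.40e-04). In the fit with the muscle score the adjusted p was 0.108 for *Xbp1*, 0.761 for *Cyr61* and 0.0505 for *Ddit4*. Of 44 cell cycle genes 5 passed as higher, with log2 fold changes of 0.58 to 0.89, and 1 as lower, and none passed with that covariate. Of 24 interferon-responsive genes 1 passed, as higher.

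Of 21 tested adipokines and secreted factors 3 passed as higher and 7 as lower, and 2.00 and 3.00 did with the muscle score as covariate. *Lep*, leptin, which signals fat stores to the brain, had 152, 162, 279.6, 69.6 and 201 CPM on chow and 859, 642, 161, 414 and 496 CPM on HFD. HFD mice 1, 2, 4 and 5 were above all chow mice and mouse 3 lay within the chow range. The log2 fold change of 1.58 (standard error 0.54, adjusted p = 0.0213) did not pass without chow mouse 4 (adjusted p = 0.0672), without HFD mouse 1 (adjusted p = 0.0716) or with the muscle score as covariate (adjusted p = 0.193). *Nnat*, neuronatin (chromosome 2, 157385814 to 157388261), which lies within *Blcap*, had 34.4, 18.4, 10.3, 20.01 and 35.8 CPM on chow and 295, 135, 90.3, 59.1 and 111 CPM on HFD. All HFD mice were above all chow mice, by a log2 fold change of 2.54 (standard error 0.40, adjusted p = 6.36e-06). *Adipoq*, adiponectin, had 1209, 952, 1522, 1823 and 1382 CPM on chow and 1015, 918, 1115, 1064 and 1200.3 CPM on HFD. The groups overlapped, and the log2 fold change of -0.37 (standard error 0.13, adjusted p = 0.0192) did not pass on plain library totals, with the muscle score as covariate (adjusted p = 0.942), or without any one of chow mice 3 and 4 and HFD mouse 2 (adjusted p = 0.0533, 0.111 and 0.0579).

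Among those that fell furthest was *Ptgds*, lipocalin-type prostaglandin D synthase (chromosome 2, 25322232 to 25325269), with 211, 326, 38.6, 44.3 and 125 CPM on chow and 8.35, 14.6, 9.20, 19.5 and 9.42 CPM on HFD. Chow mice 1, 2 and 5 were well above mice 3 and 4, and these were still above all HFD mice, with a log2 fold change of -3.60 (standard error 0.39, adjusted p = 1.13e-08). *Rbp4*, which carries retinol in plasma, had 92.8, 148, 64.7, 65.6 and 77.6 CPM on chow and 26.9, 23.0, 25.8, 34.0 and 22.4 CPM on HFD, with no overlap and a log2 fold change of -1.76 (standard error 0.21, adjusted p = 5.74e-08). *Retn*, resistin, fell by 1.79 (standard error 0.33, adjusted p = 6.59e-05) without overlap, and had an adjusted p of 0.176 with the muscle score as covariate.

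Markers of blood vessel cells rose together. Of 15 tested endothelial markers 12 passed as higher, beside 15.4% of all tested genes, and none as lower, with a median of 0.70. Of the 15, 10 lay higher without overlap between the groups, beside 9.45% of all tested genes. The 15 summed to 1379 to 1951 CPM on chow and 2458 to 3269.8 CPM on HFD. *Tie1*, an endothelial receptor tyrosine kinase, had 136, 140.0, 96.4, 127 and 119.5 CPM on chow and 253, 290.4, 258, 224 and 227 CPM on HFD, a log2 fold change of 1.02 (standard error 0.15, adjusted p = 1.20e-06). *Flt1*, a receptor for VEGF, and *Tek*, the angiopoietin receptor, rose by 0.94 (standard error 0.12, adjusted p = 1.50e-07) and 0.83 (standard error 0.11, adjusted p = 7.56e-07). Of 13 markers of smooth muscle and pericytes, the cells around vessels, 9 passed as higher, with a median of 0.73 and sums of 677 to 869 CPM on chow against 1170 to 1462 CPM on HFD. *Notch3*, *Rgs5* and *Pdgfrb* rose by 0.89 (standard error 0.15, adjusted p = 1.72e-05), 0.97 (standard error 0.19, adjusted p = 9.41e-05) and 0.73 (standard error 0.13, adjusted p = 2.04e-05). With the muscle score as covariate 7 endothelial markers passed (median 0.56) and 2 of smooth muscle and pericytes (median 0.68), without *Notch3*, *Rgs5* and *Pdgfrb* (adjusted p = 0.0502, 0.11 and 0.105). Against chow mouse 1 alone 6 and 1 passed. The part of the vessel markers in the other results was not tested.

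Of 33 tested matrix genes 9 passed as higher and 2 as lower, and 1 each way with the muscle score as covariate. *Col4a1* and *Col4a2*, the collagen chains of basement membranes, rose by 0.55 (standard error 0.11, adjusted p = 1.77e-04) and 0.58 (standard error 0.10, adjusted p = 2.34e-05), and *Timp3*, a protease inhibitor that lies within *Syn3*, by 0.79 (standard error 0.13, adjusted p = 9.47e-06). *Col1a1*, the fibrillar collagen of fibroblasts, picked after its value was seen, had 129, 151, 165, 302 and 173 CPM on chow and 118, 93.5, 71.6, 86.6 and 117 CPM on HFD. The groups did not overlap, chow mouse 4 was highest, and the log2 fold change of -0.92 (standard error 0.29, adjusted p = 0.0148) did not pass without that mouse (adjusted p = 0.0871) or on plain library totals (adjusted p = 0.0512). Of 14 fibroblast and preadipocyte markers 2 passed as higher and 3 as lower, *Dlk1*, the preadipocyte factor, with 1.69 (standard error 0.39, adjusted p = 8.93e-04) and *Lum*, lumican, with -0.86 (standard error 0.20, adjusted p = 0.0012). *Col4a1*, *Col4a2* and *Dlk1* did not pass with the muscle score as covariate (adjusted p = 0.484, 0.159 and 0.556). No leukocyte marker passed the test. This holds for 28 macrophage, 15 lymphocyte and 3 neutrophil markers, and the macrophage list summed to 273 to 444 CPM on chow and 201 to 471 CPM on HFD. Neither of 2 erythroid markers passed. Of 8 markers of Schwann cells and nerve 1 passed, as higher, and of 18 liver markers 2, as lower.

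The largest changes outside the lists were of genes with varied roles. They were taken from called genes with no overlap between groups that kept their direction and passed with the muscle score as covariate, 64 higher and 146 lower at a mean of at least 5 CPM in the higher group. *Pmepa1*, which dampens TGF-β signalling, had 112, 132, 70.1, 137 and 106 CPM on chow and 567, 604, 488, 855 and 498 CPM on HFD, a log2 fold change of 2.43 (standard error 0.28, adjusted p = 3.40e-08). *Tusc5*, a membrane protein that aids the insulin-responsive glucose transporter, had 387, 392, 270.0, 388 and 319.6 CPM on chow and 1222, 1169, 819.6, 996 and 1102 CPM on HFD, a log2 fold change of 1.59 (standard error 0.15, adjusted p = 6.97e-10). The groups were far apart in both genes. *Pon1*, paraoxonase 1, rose by 2.31 (standard error 0.28, adjusted p = 9.08e-08), *Cntfr*, the receptor for ciliary neurotrophic factor, by 2.30 (standard error 0.36, adjusted p = 5.13e-06), *Fam102a* by 1.83 (standard error 0.23, adjusted p = 1.86e-07), *Cdon*, a Hedgehog coreceptor, by 1.58 (standard error 0.19, adjusted p = 1.03e-07) and *Lamb3*, a laminin chain, by 1.56 (standard error 0.29, adjusted p = 5.17e-05).

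Of the genes that fell, *Zbed6*, a repressor that lies within *Zc3h11a* (chromosome 1, 135552456 to 135557462), had 73.5, 103, 34.7, 76.6 and 105 CPM on chow and 2.38, 3.64, 3.23, 2.74 and 2.03 CPM on HFD. The HFD mice were tightly together, far below all chow mice, with a log2 fold change of -4.79 (standard error 0.35, adjusted p = 2.45e-12), and reads of *Zbed6* cannot be told from those of the gene around it. *Zfp369*, a zinc finger gene, had 11.2, 10.3, 5.60, 6.67 and 7.32 CPM on chow and 0.576, 0.889, 0.412, 0.813 and 0.477 CPM on HFD and fell by 3.67 (standard error 0.27, adjusted p = 2.45e-12). *Slc2a5*, the fructose transporter, had 65.3, 93.9, 115, 35.4 and 43.8 CPM on chow and 2.38, 2.58, 0.481, 20.3 and 2.38 CPM on HFD. HFD mouse 4 again lay nearest to the chow mice, with a log2 fold change of -3.61 (standard error 0.63, adjusted p = 2.70e-05). *Atp4b*, a subunit of the gastric proton pump, fell by 4.19 (standard error 0.65, adjusted p = 3.92e-06). *Phyhip* had -3.92 (standard error 0.61, adjusted p = 4.23e-06), *Adprhl1* had -3.38 (standard error 0.48, adjusted p = 1.04e-06) and *Igdcc4*, a cell surface protein of the immunoglobulin superfamily, had -3.32 (standard error 0.38, adjusted p = 3.05e-08). All 3 had at most 16 counts in every HFD mouse.

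The C-3BO mice had their own chow and HFD groups. Their HFD effect called 321 genes higher and 449 lower. Of these 35 and 352 were called the same way in control mice, which is 21.2% of the control calls and 10.9% of the C-3BO calls among higher genes, and 54.4% and 78.4% among lower genes. Of the control calls, 157 of 165 higher and 591 of 647 lower ones had the same sign in C-3BO mice. Of those that had passed with the muscle score as covariate, 55 of 83 higher and 148 of 190 lower ones passed the same way. The muscle list summed to 1204 to 8663 CPM in chow and 321 to 479.9 CPM in HFD C-3BO mice, so that the difference in muscle RNA ran the same way. The diet effect differed between C-3BO and control mice for 278 genes, 2.09% of those tested, in a test of the difference itself. The count was 184 without chow control mouse 3, 179 without HFD control mouse 1 and 126 without HFD C-3BO mice 4 and 5, which held liver RNA. *Fasn* had log2 fold changes of -2.72 in control and -3.24 in C-3BO mice, and the difference did not pass (adjusted p = 0.775). Of the 114 genes followed one by one, 15 differed, among them 5 that are given here. Most of the 114 were picked by a low p or a large change in control mice, which the test of the difference subtracts. That choice favours a smaller effect in the other mice, here and in the saline mice below. *Tusc5* rose in control mice and had 0.20 (adjusted p = 0.331) in C-3BO mice, a difference of -1.39 (adjusted p = 8.67e-05). *Ptgds* fell in control mice and had 1.36 (adjusted p = 0.0242) in C-3BO mice, a difference of 4.96 (adjusted p = 1.69e-06). *Plin4* rose in control and fell in C-3BO mice (-0.69, adjusted p = 2.90e-04), a difference of -1.35 (adjusted p = 7.30e-05). *Rbp4* and *Pygb* had 0.14 and -0.18 in C-3BO mice, and each differed from control mice (adjusted p = 8.67e-05 and 6.69e-04). In C-3BO mice 16 of 18 liver markers and both of 2 tested epididymis markers passed as higher on HFD (median log2 fold changes 5.96 and 9.3). The part of such RNA in these differences was not tested.

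Saline mice, 15-week-old control littermates of another line given daily injections for 9 days, are another set of mice on both diets that had no agonist. Like the control mice, they carried the *Gpr3* TTG allele or a Cre transgene, not both. Their chow libraries had 7954684 to 12148845 counts and 0 to 0.216 CPM of *Alb*, and their HFD libraries 849126 to 7284129 counts and 62.2 to 170 CPM of *Alb*, and the diet cannot be told apart from this library difference. Their muscle list summed to 269.9 to 5118 CPM on chow and 332 to 4250.2 CPM on HFD, which overlap. In saline mice 16 of 18 liver markers and both of 2 tested epididymis markers passed as higher on HFD (median log2 fold changes 6.56 and 8.8). In saline mice 288 genes (2.17%) were called higher and 193 (1.45%) lower on HFD. Of these, 19 and 105 were called the same way in control mice, 11.5% of the control calls and 6.60% of the saline calls among higher genes, and 16.2% and 54.4% among lower genes. At an adjusted p under 0.05, where 7.45% of tested genes were higher and 8.04% lower in saline mice, 53 of the 165 and 149 of the 647 control calls passed the same way. Of the control calls that had kept their direction and passed with the muscle score as covariate, 40 of 83 higher and 105 of 190 lower ones passed in saline mice.

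**Figure D5:**
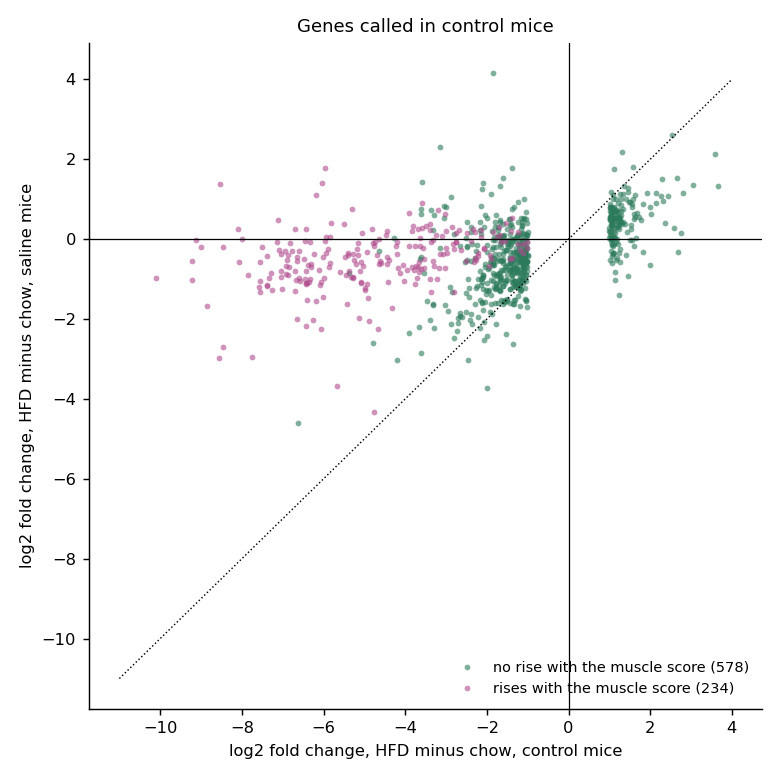
Log2 fold change, HFD minus chow, of the 812 genes called in control mice (x axis) and in saline mice (y axis), with the 234 genes that rise with the muscle score in purple, the other 578 in green, and a dotted line where both are equal. The purple genes reach -10.11 in control mice and lie well above the dotted line, with smaller changes in saline mice, and 513 of the 647 genes called lower and 135 of the 165 called higher have the same sign in both sets of mice.

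Genes of lipid synthesis were lower on HFD in saline mice as well. In saline mice 17 of 22 lipogenic genes passed as lower, with a median of -1.26, and 9 of 23 cholesterol genes, with a median of -0.42. *Fasn* changed by -2.30 (adjusted p = 0.00126), *Me1* by -2.49 (adjusted p = 2.42e-06) and *Scd1* by -1.59 (adjusted p = 0.00316). *Ucp1* had 1267 to 1864 CPM on chow and 2309.7 to 3845 CPM on HFD in saline mice. It rose in them without overlap by 0.81 (adjusted p = 0.0326), less than in control mice by a difference of -1.18 (adjusted p = 0.0369). *Nnat* rose by 2.61 (adjusted p = 3.58e-05), *Fabp3* by 1.14 (adjusted p = 9.29e-05) and *Cd36* by 0.46 (adjusted p = 0.00111). Endothelial markers passed as higher in 4 of 15 cases, with a median of 0.36. The diet effect differed between saline and control mice for 1269 genes, 9.56% of those tested, and 49 of these were on the muscle list. *Ptgds* and *Elovl3*, far lower on HFD in control mice, had 0.75 (adjusted p = 0.252) and -0.44 (adjusted p = 0.653) in saline mice, and both differed from control mice (adjusted p = 4.52e-05 and 0.00656). *Pck1*, *G0s2* and *Cpt1b* had 0.15, -0.03 and 0.20 in saline mice, none of which passed, and each differed from the rise in control mice (adjusted p = 0.0259, 0.0214 and 0.00254).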

How the data were processed

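RNA was extracted from snap-frozen BAT with Trizol, and poly(A) libraries (TruSeq) were sequenced on an Illumina HiSeq. The authors aligned reads to mm9 with STAR and counted reads in exons with HOMER and iRNA-seq, and the deposited table holds these raw counts for 20295 genes in 40 libraries, with no normalization. Strandedness is not stated in the sources used here. Positions are those of the deposited table.

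Groups came from the GEO labels. The labels do not state that each library is a separate mouse, and if some are not, p-values measure technical spread. edgeR 4.0.16 (limma 3.58.1, R 4.3.3) fitted all 40 libraries as 8 groups with TMM factors, after filterByExpr with a minimum count of 10, and its quasi-likelihood test gave Benjamini-Hochberg adjusted p-values. The standard error is the log2 fold change divided by the root of F. Exact permutation tests used log2 CPM with a prior count of 2, and Python 3.11.15 with pandas 2.3.3 and matplotlib 3.10.9 made summaries and plots. Both tests were tested on simulated data. The muscle score is the mean log2 CPM of the 50 muscle markers. Promoters were read from NCBIM37 (mm9) at RefSeq gene starts.

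The lists, the comparison and the named genes were chosen with earlier results of these data known. Genes were named by these rules. A few items are not reported here. The 10 largest rises and falls were taken among called genes off the marker lists of other cell types, without overlap between groups, with a mean of at least 5 CPM in the higher group, and passing with the muscle score as covariate. From each pathway list up to 6 genes, and from each marker list up to 3, were taken by lowest p, beside a set of well-known genes. *Acly*, *Acaca*, *Srebf1*, *Acsl1*, *Per2* and *Col1a1* lie outside the rules and were chosen after their values were seen. Alternatives were DESeq2 1.42.0, other scaling, other filters, fewer libraries, the muscle score as covariate, a replicate block and leaving out each mouse. Leaving out chow mice 2 to 5, and leaving out 2 HFD C-3BO mice, were added after seeing the data.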

Additional observations from a re-analysis of the deposited data

Results flagged for a closer look

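For each of 114 genes the spread within the 5 chow and within the 5 HFD control mice was examined, 228 sets of 5 values in all. In 23 of them the highest or lowest mouse stood apart by more than Dixon's critical value of 0.71. Chance alone would give about 1 in 20 of independent sets. These sets share mice and pathways and are not independent, so an excess over chance cannot be read from the count. HFD mouse 4 accounted for 13 of the 23. It had the highest HFD level of *Fasn* (11600 CPM), *Acly* (1700 CPM), *Acss2* (203 CPM), *Slc25a1* (315 CPM), *G6pdx* (180 CPM), *Insig1* (228 CPM), *Nsdhl* (41.8 CPM), *Etfa* (1240 CPM), *Pdha1* (2100 CPM), *Pygl* (672 CPM) and *Aacs* (248 CPM), and the lowest of *Adcy6* (466 CPM) and *Ppara* (1180 CPM). Its muscle list was not the highest of its group, at 326 CPM. The other sets of the HFD group were *Fabp3* in mouse 5 (659 CPM, highest), *Pde3b* in mouse 5 (277 CPM, lowest) and *Fitm1* in mouse 1 (0.072 CPM, lowest). Among chow mice, mouse 3 was highest for *Bmp8b* (10.7 CPM), *Adprhl1* (9.40 CPM) and *Pkm* (2680 CPM) and lowest for *Pde3b* (352 CPM), *Pck1* (1400 CPM) and *Cdon* (9.40 CPM), and mouse 1 was lowest for *Acta1* (190 CPM).

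The diet effect in C-3BO mice differed from that in control mice, by the test of the difference itself, for 15 of the 114 genes. Over all tested genes the share was 2.09%. As C-3BO minus control log2 fold changes, it was less negative or reversed for *Elovl3* (2.85), *Bmp8b* (5.28), *Apoc1* (1.27), *Mogat1* (1.19), *Sdhb* (0.66), *Xbp1* (0.79), *Ptgds* (4.96) and *Rbp4* (1.90). It was less positive or reversed for *Ppara* (-0.93), *Plin4* (-1.35), *Pygb* (-0.83), *Nr1d1* (-0.68), *Fam102a* (-1.39), *Tusc5* (-1.39) and *Cdon* (-1.25). Markers of liver and epididymis passed as higher on HFD in C-3BO mice, and the part of such RNA in these differences was not tested.

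In saline mice 34 of the 114 differed, beside 9.56% of all tested genes. Most of the 114 were picked by a low p or a large change in control mice, and that change is subtracted here. The choice therefore favours smaller effects in C-3BO and saline mice. As saline minus control log2 fold changes, the muscle genes *Acta1* (6.05), *Ckm* (6.22), *Mylpf* (5.61) and *Fitm1* (4.51), and *Phka1* (0.80), were less negative. The summed muscle list of saline mice overlapped between the diets. Less negative or reversed were also *Elovl3* (3.18), *Bmp8b* (4.52), *Sqle* (1.36), *Aldoc* (1.71), *Phkb* (0.56), *Ptgds* (4.35), *Rbp4* (1.22), *Lum* (1.09), *Zbed6* (2.19), *Zfp369* (1.46), *Igdcc4* (3.55) and *Col1a1* (1.3). Less positive or reversed in saline mice were *Ucp1* (-1.18), *Prdm16* (-0.84), *Cpt1b* (-0.73), *Adcy4* (-0.68), *Vnn1* (-1.27), *Lrp1* (-0.90), *Pck1* (-0.98), *Aqp7* (-0.74), *G0s2* (-1.58), *Fitm2* (-0.93), *Sesn2* (-1.82), *Cyr61* (-1.67), *Flt1* (-0.88), *Pmepa1* (-1.36), *Pon1* (-1.36), *Tusc5* (-1.09) and *Acsl1* (-0.94). The saline mice also differ from the control mice in age, line and injections, and in the depth and the liver and epididymis RNA of their HFD libraries. The part of these in the differences was not tested.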

How the results depend on the processing

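The counts of 165 genes called higher and 647 called lower became 344 and 556 with library totals, 77 and 155 with at least 10 counts in every library, 139 and 2.5e2 with the muscle score as covariate, 100 and 215 without chow mice 2 to 5, and 2044 and 2321 with no fold threshold. DESeq2 gave 161 and 664, no filter 183 and 799, and leaving out 1 mouse 151 to 182 and 629 to 684. The 278 genes that differed in C-3BO mice became 457 with DESeq2, 168 with the libraries of the comparison alone, 126 without the 2 HFD C-3BO mice with liver RNA and 179 to 414 without 1 mouse (184 without chow replicate 3 and 179 without HFD replicate 1). The 1269 that differed in saline mice became 377 with the muscle score as covariate and 924 to 1351 without 1 mouse. Of the 114 genes, 106 passed the exact permutation test, and 104 with library totals. Most of them were picked by a low p or by lack of overlap in these same mice, so that passing was largely set by the choice.

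A total of 59 of the 114 genes kept direction and side of the threshold in every alternative in which they were tested. Signs turned with the muscle score as covariate for *Lpl* (0.027), *Fitm1* (1.41), *Acta1* (0.73), *Ckm* (0.029) and *Mylpf* (0.39), none of which passed there. *Acta1*, *Ckm* and *Mylpf* are themselves part of the score. They also turned among genes that did not pass. Leaving out 1 mouse gave -0.16 to 0.27 for *Srebf1*, -0.0010 to 0.50 for *Dio2* and -0.080 to 0.33 for *Adrb3*, with the lowest value of each without HFD replicate 4. *Ppargc1a* came to 0.056 without chow mice 2 to 5. Fewer genes are tested under the stricter filter, and other causes were not tested.

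The labels do not say whether replicate numbers pair the mice, and the main fit did not use them as pairs. Deviations from the group means correlated at -0.07 to 0.24 between mice of the same number. Between mice of other numbers they correlated at -0.20 to 0.24, and 3 of 10 mice correlated best with their own number. With so few pairs of the same number, these values cannot decide whether mice were paired. With a replicate block 159 genes were called higher and 650 lower, 149 and 535 on the 10 control libraries alone, and 288 and 1218 differed in C-3BO and saline mice. Among the genes followed, *Adipoq* did not pass with it on the 10 control libraries (adjusted p = 0.0751), and no other tested one changed its side of the threshold. Depth limits genes near 0.206 to 0.399 CPM, the level of 3 counts.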

Other observations

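Genes were binned by the GC content of their transcripts, which was known for 12448 of the 13277 tested (93.8%). The median log2 fold change, HFD minus chow, was -0.16 in the lowest of 5 bins and -0.03, 0.06, 0.10 and 0.06 in the next 4 bins of equal size. The median GC content was 53.3% among genes called higher, 52.0% among genes called lower and 50.5% among all tested genes.

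Of the 812 called genes 80 (9.85%) overlap another listed gene on the genome, beside 11.6% of all tested genes.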
